A study of Mus musculus with 6 samples.

Results

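Cytochrome P450 enzymes of families 1 to 4 were followed in lung RNA of mice lacking Carm1, an enzyme that methylates arginines of histones and helps nuclear receptors switch on genes. The members were all probe sets (groups of short probes near a transcript's 3′ end that together give 1 signal) whose only gene symbol was Cyp, a family number from 1 to 4, a subfamily letter and a gene number. This gave 67 of 45101 probe sets, for 54 genes, and 4 further probe sets that carried several such symbols were left out. The series had 6 whole-genome mouse arrays of whole-lung RNA, 3 labelled wild type and 3 labelled Carm1 knockout. The study's design text places all of them at embryonic day 18.5, and the knockout labels do too, whereas the wild-type labels call the tissue neonatal. If the wild-type labels hold, stage and genotype cannot be told apart in any comparison here. Strain, allele, litter and any pooling are not given in the labels, so whether same-genotype samples came from separate animals is not known, and p-values measure only the spread between these samples.

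These P450s are haem enzymes of the endoplasmic reticulum that insert oxygen into drugs, pollutants, steroids and fatty acids with electrons from the reductase Por. Liver holds most of them, and many, but not all, family 1 to 3 genes there respond to the Ah receptor, CAR or PXR. Family 4 enzymes hydroxylate fatty acids at the chain end. Lung is known for its own set, in which Cyp2f2 of the club cell and Cyp4b1 activate inhaled or circulating toxicants.

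The arrays stood apart in ways that bear on this family. Signals of 13 measured hepatocyte markers (albumin, alpha-fetoprotein, fibrinogens, apolipoproteins and others) summed to 155035 on wild type replicate 2 and 223739 on knockout replicate 1. The other 4 arrays gave 427 (wild type replicate 3), 4456 (knockout replicate 2), 5750 (wild type replicate 1) and 18872 (knockout replicate 3). The array of each genotype with the highest sum therefore carried liver transcripts, although all samples are labelled lung. The 12 tested markers were all higher in knockout (median log2 1.55), each with overlapping groups and none past the adjusted threshold. In the text, Cyp2e1, Cyp4b1, a probe set of Cyp2d22 and the counts of called probe sets are also given without wild type replicate 2 and knockout replicate 1. Knockout replicate 3, next in sum, stayed in those fits. Other differences, counts and marker lists in the text are not given without the 2 arrays. Bacterial control RNA was present on wild type replicates 1 and 3 and on no other array, and Y-linked transcripts were high in wild type replicate 3 and knockout replicate 2 only. The lung marker genes of alveolar type II cells summed to between 143752 and 200953 on every array. Carm1 itself, read by 1 probe set that may cross-hybridise, gave 814, 678 and 865 in wild type and 395, 374 and 511 in knockout, at 54.0% of the wild-type level (adjusted p = 0.105 with limma). The position of that probe set in the deleted gene is not known here.

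Sequences upstream of 5 members are shown because 4 of them were the tested genes lowest in knockout relative to wild type and the last, Cyp3a11, varied widely with the hepatocyte markers. Each is the 250 bases before the RefSeq start in GRCm38.p6, read 5′ to 3′ on the gene's strand. Capitals mark a match on either strand to any of 7 motifs. The TATA box was searched as TATAAA. The core of Ah receptor sites was searched as GCGTG, and the hexamer to which the glucocorticoid receptor binds was searched as AGAACA. For the liver factor HNF4 the letters were CAAAGTCCA, and for the FOXA factors of liver and lung they were TGTTTAC. The remaining motifs were the HNF1 palindrome and the PPAR direct repeat.
Cyp2e1, chr7:140763569-140763818, plus strand: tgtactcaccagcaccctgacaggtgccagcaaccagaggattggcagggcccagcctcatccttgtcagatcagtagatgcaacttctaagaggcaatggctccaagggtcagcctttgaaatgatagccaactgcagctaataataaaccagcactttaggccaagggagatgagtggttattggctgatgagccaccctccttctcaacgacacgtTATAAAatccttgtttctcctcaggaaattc
Cyp4b1, chr4:115647722-115647971, minus strand: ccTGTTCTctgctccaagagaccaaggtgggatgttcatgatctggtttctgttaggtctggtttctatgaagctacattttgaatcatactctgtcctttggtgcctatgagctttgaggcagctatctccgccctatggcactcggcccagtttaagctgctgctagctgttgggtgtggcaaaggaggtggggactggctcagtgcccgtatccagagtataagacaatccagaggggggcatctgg
Cyp2j6, chr4:96553652-96553901, minus strand: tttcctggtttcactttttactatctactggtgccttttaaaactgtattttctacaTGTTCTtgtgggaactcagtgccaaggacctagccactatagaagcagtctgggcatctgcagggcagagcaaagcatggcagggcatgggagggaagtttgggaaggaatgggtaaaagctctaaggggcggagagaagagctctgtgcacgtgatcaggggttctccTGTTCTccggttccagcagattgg
Cyp4v3, chr8:45333164-45333413, minus strand: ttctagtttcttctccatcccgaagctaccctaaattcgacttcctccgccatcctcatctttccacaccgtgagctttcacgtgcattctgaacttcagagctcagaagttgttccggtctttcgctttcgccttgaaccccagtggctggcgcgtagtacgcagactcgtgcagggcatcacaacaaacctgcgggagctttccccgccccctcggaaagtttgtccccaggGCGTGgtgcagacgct
Cyp3a11, chr5:145879855-145880104, minus strand: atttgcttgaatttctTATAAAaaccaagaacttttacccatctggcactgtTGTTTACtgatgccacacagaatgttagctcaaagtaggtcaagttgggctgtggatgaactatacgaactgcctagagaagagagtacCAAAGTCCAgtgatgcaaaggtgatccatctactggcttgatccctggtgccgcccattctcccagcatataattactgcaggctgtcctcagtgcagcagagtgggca

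In these windows Cyp2e1 held a TATA box starting 31 bases before the start, and Cyp4v3 held an Ah receptor core. The glucocorticoid receptor hexamer was read on the minus strand once in Cyp4b1 and at 2 places in Cyp2j6. Cyp3a11 held HNF4 and FOXA matches and a TATAAA 234 bases before the start. No match overlapped another. RefSeq entries were found for 43 of the 54 genes. The HNF4 letters stood in 5 of these 43 (Cyp2c65, Cyp2c68, Cyp2c70, Cyp3a11 and Cyp3a16) and in 0.384% of all 32851 upstream windows. FOXA letters stood in 6 members (14%), against 3.17% of all windows, and TATAAA in 17 (39.5%), against 12.4%. A member counted if any of its windows matched (49 windows for 43 genes), whereas the share over all is per window. Related members of 1 subfamily were each counted. The Ah receptor core stood in 10 members, or 23.3%, against 28.2% of all windows, and the glucocorticoid hexamer in 9, or 20.9%, against 16.1%. No member held the HNF1 or PPAR letters, which stood in 0.00913% and 0.0335% of windows. A match is a stretch of letters and not a measured binding site.

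Most P450 genes gave little signal in these lungs. Because no detection calls were used, the 95th percentile of 44 olfactory receptor probe sets on each array, a family not expected in lung, served as a floor for unspecific signal, between 43.4 and 75.5. Of the 67 members 17, for 14 genes, lay above this floor on all 6 arrays and 24 on none. The count above it on all 3 arrays of a genotype was 19 in wild type and 20 in knockout, and 22 met this in at least 1 genotype. The 14 genes were Cyp1a1, Cyp1b1, Cyp2c23, Cyp2d22, Cyp2e1, Cyp2f2, Cyp2j6, Cyp2s1, Cyp3a13, Cyp4b1, Cyp4f13, Cyp4f16, Cyp4f18 and Cyp4v3. They include the club cell enzyme Cyp2f2 and the airway enzyme Cyp2s1. The subfamilies Cyp2g, Cyp2u, Cyp4x and, except for Cyp4a14 on wild type replicate 2, Cyp4a had no probe set above the floor on any array. The map of all 67 probe sets shows the small upper block of steady signal and, further down, a scatter of probe sets high on the same 2 arrays.

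**Figure D1:**
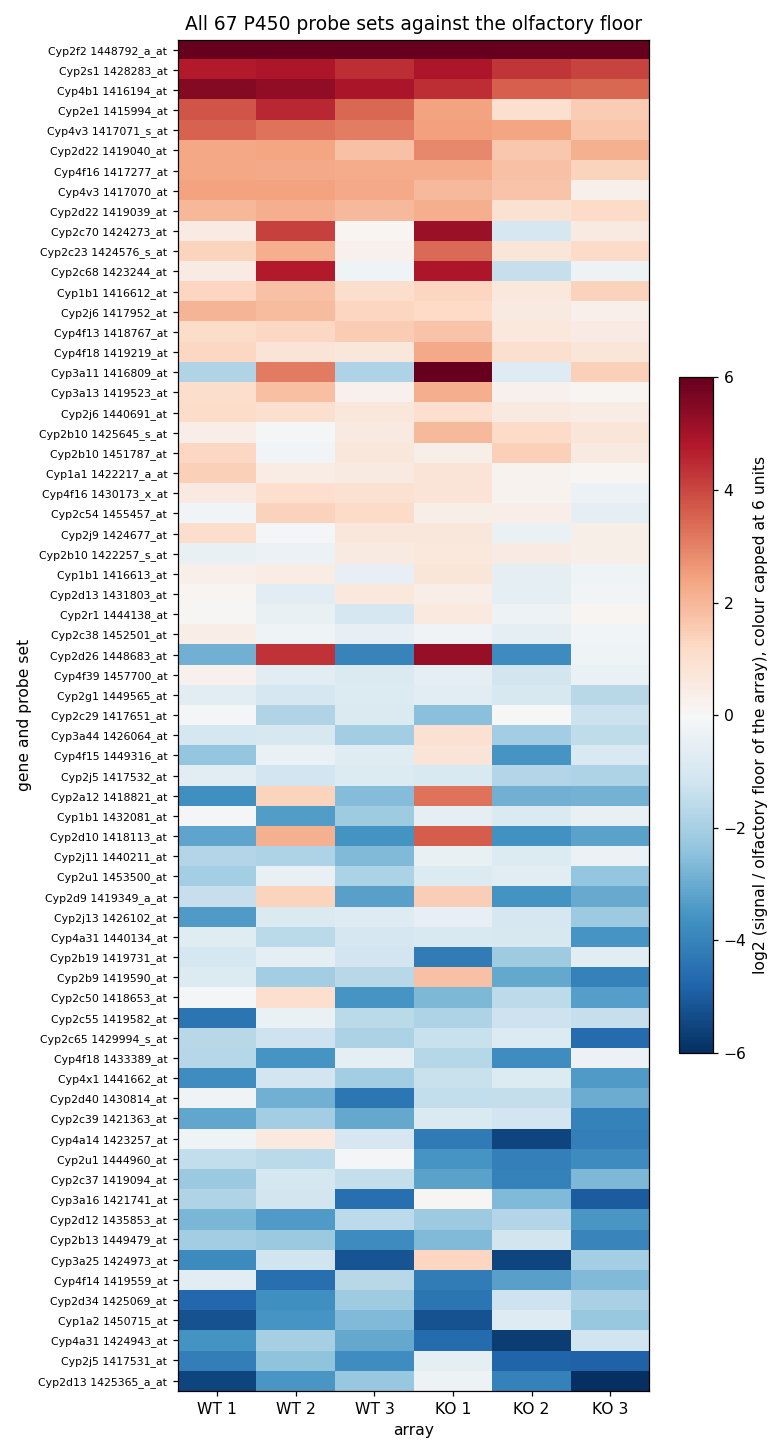
Signal of each of the 67 P450 probe sets (rows, ordered by mean) on each array (columns), as log2 of the signal over that array's olfactory floor, with colour capped at 6 units. Red is above and blue below the floor, 17 probe sets are above it on all 6 arrays, and Cyp2d26, Cyp2d10, Cyp2a12, Cyp2c68, Cyp2c70 and Cyp3a11 are reddest on wild type 2 and knockout 1.

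Of the 67, 26 probe sets for 20 genes passed the filter on low values (mean log2 over all 6 arrays above the 40th percentile, a signal of 59.7) and were tested. The 41 that did not pass were described only. Over all 27022 tested probe sets 0.0259% fell and 0.00370% rose at an adjusted p under 0.05 with limma, and among the members 1 fell and 0 rose. At an unadjusted p under 0.05, 6 of the 26 (23.1%) were lower and 1 was higher, against 6.31% and 7.32% of all tested probe sets. The groups did not overlap, with knockout lower, in 7 of 26 (26.9%), against 9.36% of all, and with knockout higher in 1, against 10.7%. Where a difference of at least 1.5-fold was also asked for, 5 were lower and 1 higher, against 2.06% and 3.05% of all. The median log2 difference was −0.26 over the members and 0.02 over all tested probe sets, with 17 members lower and 9 higher, against 47.3% lower and 52.7% higher over all. These counts leave out the members under the filter, and probe sets of 1 gene share their transcript.

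**Figure D2:**
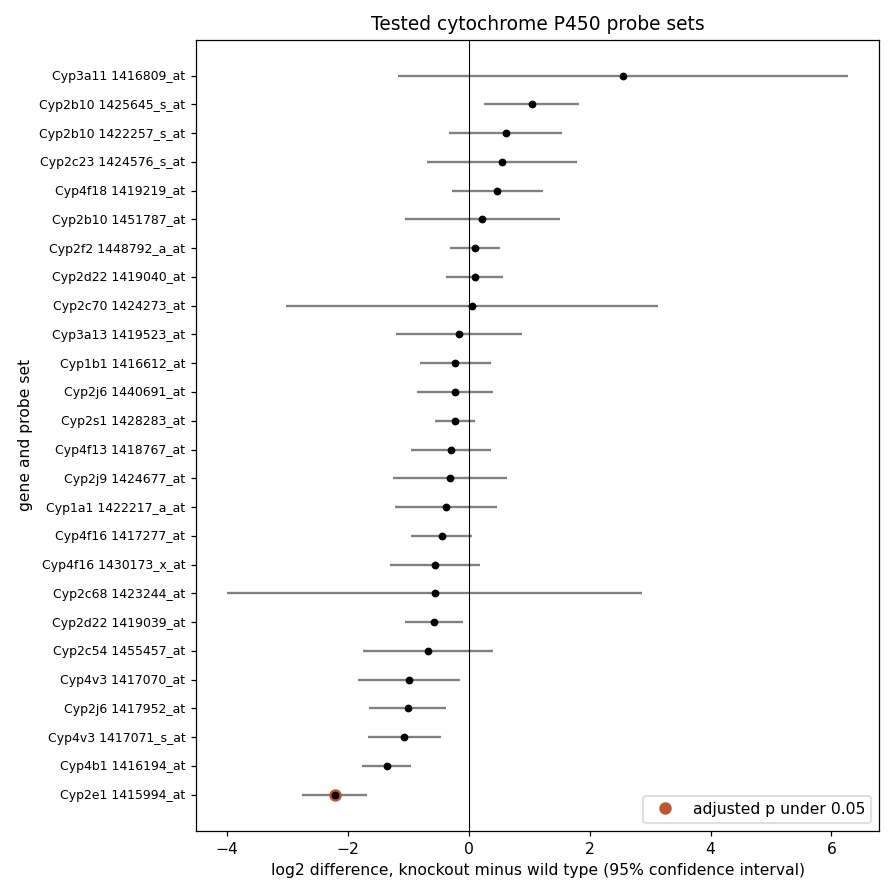
Log2 difference, knockout minus wild type, for the 26 tested P450 probe sets (points) with 95% confidence intervals from limma (bars). Cyp2e1 at −2.22 is the 1 probe set past the adjusted threshold (orange), and the widest intervals are those of Cyp3a11, Cyp2c68 and Cyp2c70.

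Cyp2e1, which oxidises ethanol and small solvents, was lower in knockout lung. Its signals were 829, 1155 and 659 on the wild-type arrays and 230.3, 149 and 181 on the knockout arrays. Every knockout array lay below every wild-type array by a wide margin. The knockout level was 4.66-fold lower, with a 95% confidence interval from 3.20-fold to 6.79-fold (log2 −2.22, SE 0.24, adjusted p = 0.0287 with limma). An exact permutation test (two-sided) gave p = 0.1, below which 3 arrays a group cannot go. Cyp2e1 is also a liver enzyme, and within each genotype its signal followed the order of the hepatocyte marker sums. It was 659, 829 and 1155 on wild type replicates 3, 1 and 2, and 149, 181 and 230.3 on knockout replicates 2, 3 and 1, each from the lowest sum to the highest. Further fits were chosen after the data were seen. Without the 2 arrays rich in hepatocyte markers, which leaves 2 arrays a group, the log2 difference was −2.17 (adjusted p = 0.0111). With the marker sum as a term it was −2.41 (adjusted p = 0.00343). Among the 4 arrays without bacterial control RNA it was −2.65 (adjusted p = 0.214), with wild type replicate 2 as the lone control and its spread taken to be like that of the knockouts. The call ended when any of wild type replicates 1, 2 and 3 or knockout replicates 2 and 3 was left out, with adjusted p of 0.195, 0.0745, 0.0734, 0.0668 and 0.140, and differences between −2.41 and −2.01.

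Cyp4b1, a lung enzyme that hydroxylates fatty acids and activates furans, gave 2756, 1973 and 1848 in wild type and 947, 915 and 689.9 in knockout. The groups did not overlap, and the highest knockout array was at 947 against 1848 for the lowest wild-type array. The difference was 2.56-fold lower (95% confidence interval 1.93 to 3.40) and did not pass over all probe sets (adjusted p = 0.0852 with limma). It passed with robust variance (adjusted p = 0.0395) and without the 2 arrays rich in hepatocyte markers (log2 −1.51, adjusted p = 0.0312). The latter fit had 2 arrays a group and was chosen after the data were seen. It called 61 probe sets over all genes, against 8 with all arrays. On the arrays lacking bacterial control RNA the log2 difference was −1.23, against −1.36 over all 6. The lone control there was wild type replicate 2, an array rich in hepatocyte markers. With a term for that RNA the difference rested on the same control array (log2 −1.23, adjusted p = 0.406). Leaving out 1 array at a time gave differences between −1.47 and −1.18 and adjusted p between 0.0824 and 0.195.

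Like Cyp4b1, the remaining family 4 members did not pass over all probe sets. Cyp4v3, a fatty acid hydroxylase whose human counterpart is mutated in a retinal dystrophy, had 2 probe sets with like differences. At the probe set that may cross-hybridise it gave 702, 474 and 513 in wild type and 241, 391 and 197 in knockout, 2.10-fold lower (adjusted p = 0.160 with limma). At the other it gave 324, 267 and 296 against 168, 245 and 78.8, 1.99-fold lower (adjusted p = 0.298). In both, knockout replicate 2 lay closest to wild type and knockout replicate 3 farthest, and without replicate 3 the second difference was −0.54 in place of −0.99.
The leukotriene and fatty acid hydroxylases of the Cyp4f subfamily showed no called difference. Cyp4f16 gave 299, 243 and 290.2 against 204, 258 and 159, and at a second probe set 88.7, 102 and 116 against 74.7, 88.3 and 49.9, with only the latter free of overlap. Cyp4f13 gave 129, 117 and 178 against 141, 119 and 87.0, and these ranges overlapped. Cyp4f18, found in neutrophils, gave 142, 86.3 and 98.8 against 210.1, 148 and 104, the 1 tested family 4 member with the higher mean in knockout, while its untested probe set was under the floor throughout. Among the untested, Cyp4a14, a fatty acid hydroxylase and classical PPAR alpha target, gave 50.4, 76.2 and 30.6 in wild type and 2.32, 1.65 and 3.65 in knockout. The groups did not overlap, but 5 of these 6 values lay under the floor, so no fold is given, and with no filter its adjusted p was 0.143.

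Among the arachidonate epoxygenases of the Cyp2j subfamily, Cyp2j6 gave 253, 188 and 149 in wild type and 100.4, 109.96 and 78.0 in knockout, 2.02-fold lower (95% confidence interval 1.30 to 3.13, adjusted p = 0.192 with limma). All knockout arrays were below all wild-type arrays at this probe set. At its other probe set the signals were 130.1, 98.5 and 98.9 against 86.1, 108 and 84.5, which overlapped, so the probe sets disagree on size. Cyp2j9, next to Cyp2j6 in RefSeq gene order, gave 126, 48.0 and 98.3 against 68.7, 57.1 and 79.3, and its groups overlapped. The untested Cyp2j11 went the other way, with 17.9, 13.7 and 9.66 against 31.5, 42.8 and 49.4, all under the floor.

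**Figure D3:**
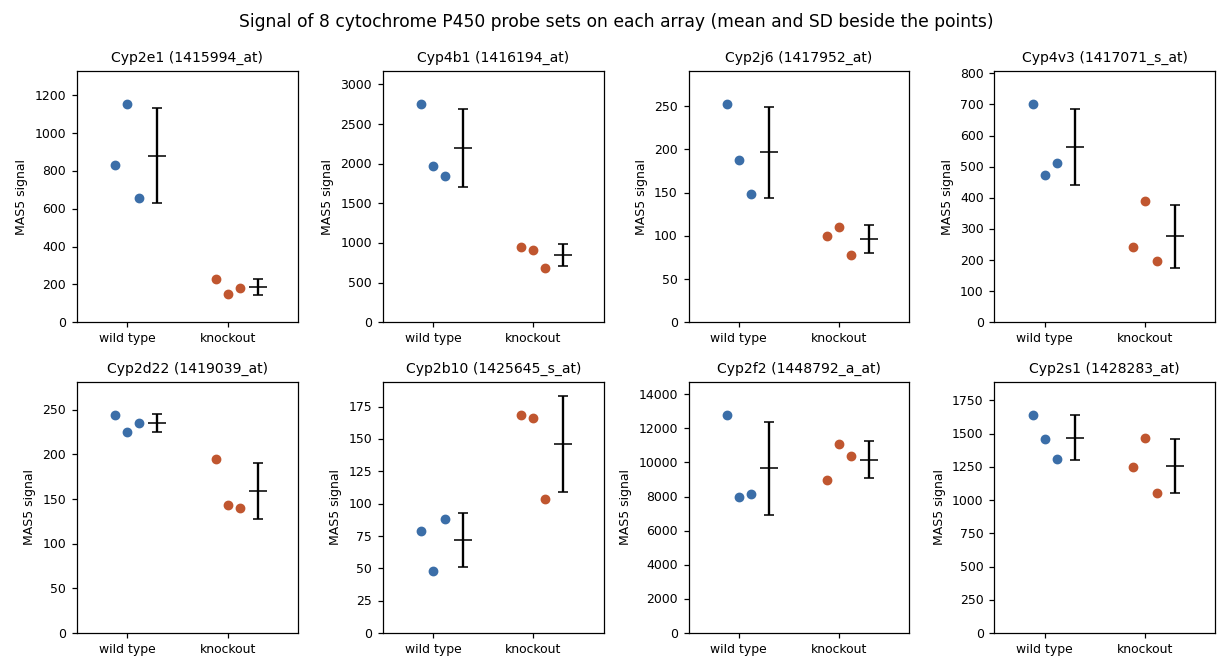
MAS5 signal (linear axis from 0) of 8 P450 probe sets on each wild-type (blue) and knockout (orange) array, with the mean and SD over 3 arrays beside the points. The groups are apart for the probe sets shown of Cyp2e1, Cyp4b1, Cyp2j6, Cyp4v3, Cyp2d22 and Cyp2b10 and overlap for Cyp2f2 and Cyp2s1. The other tested probe sets of Cyp2j6, Cyp2d22 and Cyp2b10, not shown, overlap.

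The P450s most tied to airway epithelium did not show a called difference. Cyp2f2, the club cell enzyme that activates naphthalene, gave 12805, 7992 and 8139 in wild type and 8971, 11093 and 10377 in knockout. Wild type replicate 1 was highest and the groups overlapped, and the interval of the log2 difference ran from −0.31 to 0.51 (adjusted p = 0.842 with limma). The summed signal of 8 club cell markers, of which Cyp2f2 is not one, ran from 96574 to 143329 in wild type and from 112895 to 156558 in knockout. Cyp2s1 gave 1644, 1459 and 1307 against 1251, 1466 and 1053, with an interval from −0.56 to 0.10. Sizes of difference beyond those bounds are outside the 95% confidence intervals, and smaller ones could not be told from 0 with 3 arrays a group. In the same gene cluster of chromosome 7, Cyp2b10, the phenobarbital-responsive enzyme, gave 78.9, 48.1 and 87.8 against 169, 166 and 104 at 1 of its 3 probe sets. This was the 1 tested member whose knockout arrays all lay above the wild-type arrays, at 2.06-fold (adjusted p = 0.259). The remaining Cyp2b10 probe sets gave 44.8, 39.8 and 87.6 against 66.7, 105 and 79.6, and 145, 44.7 and 98.7 against 55.1, 204 and 91.0. Their differences were 1.53-fold and 1.17-fold with overlap, and 2 of the 3 may cross-hybridise.

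The Ah receptor-induced family 1 gave low signals in both genotypes. Cyp1a1, the standard sentinel of Ah receptor activity, gave 161, 68.7 and 87.8 in wild type and 74.1, 87.7 and 68.5 in knockout. Wild type replicate 1 alone was high, and the groups overlapped. Cyp1b1, an enzyme of oestrogen and retinoid oxidation found in mesenchyme, gave 146, 167 and 128 against 105, 115 and 162 at the tested probe set, also with overlap, and its other 2 probe sets were between 4.84 and 75.5. Cyp1a2, mainly a liver enzyme, was under the floor on every array. Of the drug oxidases, Cyp2d22 had 2 probe sets that disagreed. It gave 245, 225 and 235 against 195, 143 and 139 at 1 (log2 −0.58, adjusted p = 0.292 with limma), with no overlap, and 308, 261 and 209 against 322, 235 and 271 at the other. The tested Cyp2c54 gave 55.0, 129.6 and 134 against 55.8, 99.6 and 41.9, with overlap. Vitamin D 25-hydroxylase, Cyp2r1, was above the floor on 3 arrays and untested, at 64.7, 36.3 and 30.3 against 66.0, 60.2 and 67.7.

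A second group of members, mostly liver enzymes of the Cyp2c, Cyp2d and Cyp3a subfamilies, was highest on the same 2 arrays, 1 of each genotype. Because the group was picked by this pattern, the pattern says nothing on a difference by genotype. In 13 of the 67 probe sets the 2 highest arrays were wild type replicate 2 and knockout replicate 1, the arrays rich in hepatocyte markers. Among tested probe sets this held for 5 of 26 members (19.2%) and for 4.96% of all. Cyp3a11, the main steroid and drug oxidase of mouse liver, gave 17.4, 439 and 17.2 in wild type and 3462, 44.9 and 171 in knockout. Its next value, 171 on knockout replicate 3, came on the array next in hepatocyte sum. Cyp2d26 gave 8.21, 1009 and 3.75 against 1615, 5.48 and 52.8. Cyp2c70, known for making muricholic bile acids, gave 84.8, 847 and 67.2 against 1562, 37.1 and 92.0. Cyp2c68 gave 85.3, 1333 and 51.0 against 1234, 28.9 and 50.5. Within each genotype 1 array was thus far above the others. Cyp3a13, a further enzyme of the Cyp3a subfamily, gave 128, 176 and 73.5 against 196, 89.1 and 68.1, and Cyp2c23, an arachidonate epoxygenase of kidney, 154, 227 and 73.3 against 454, 127 and 139. Both had the same 2 arrays highest, but by less than 1.5-fold over the next array, and were above the floor on all 6.
Most of the other arrays lay under their floors, so each signal under a floor was set to that floor before a fold was taken. On that scale the lower of the 2 arrays was at least 14.5-fold above the others for Cyp2c68, 13.4-fold for Cyp2d26, 9.20-fold for Cyp2c70, 2.89-fold for Cyp2d10, 2.56-fold for Cyp3a11, 1.69-fold for Cyp2a12 and 1.61-fold for Cyp2d9. Of the remaining 6 probe sets, Cyp2j5, Cyp3a16, Cyp3a25 and Cyp4f15 were under the floor on 1 or both of the 2 arrays, and no fold is given for them. The ratio of knockout replicate 1 to wild type replicate 2 was 1.44 for the hepatocyte marker sum and between 1.09 and 2.82 for its 12 tested genes. For the liver P450s it was 0.926 for Cyp2c68, 0.953 for Cyp2d9, 1.60 for Cyp2d26, 1.85 for Cyp2c70, 2.47 for Cyp2d10, 3.22 for Cyp2a12 and 7.89 for Cyp3a11. These ratios compare 1 array per genotype and carry no test. For Cyp3a11, Cyp2c68 and Cyp2c70 the genotype comparison had 95% intervals of several log2 units (−1.17 to 6.28 for Cyp3a11) and showed nothing at this spread.

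**Figure D4:**
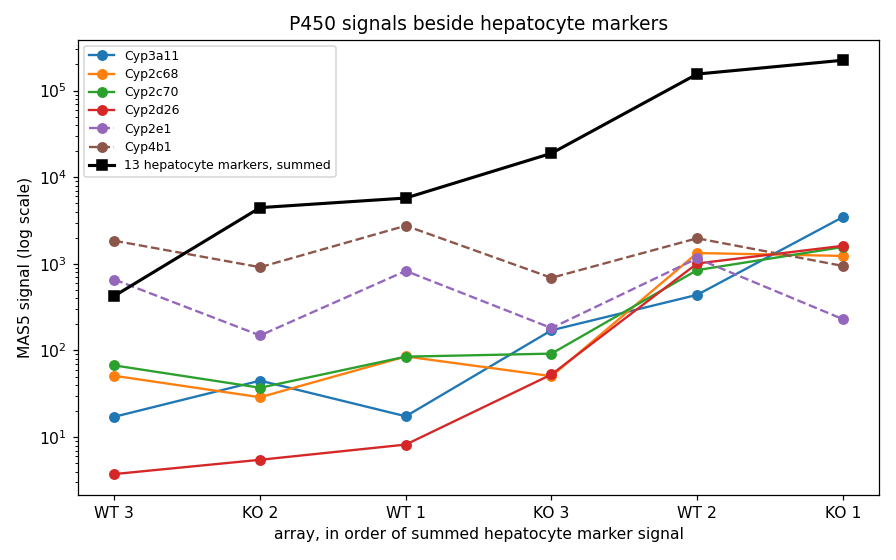
MAS5 signal (log axis) of 6 P450 probe sets and the summed signal of 13 hepatocyte markers (black squares) on the 6 arrays, ordered by that sum. Cyp3a11, Cyp2c68, Cyp2c70 and Cyp2d26 are highest on wild type 2 and knockout 1, whereas Cyp2e1 and Cyp4b1 (dashed) are lower on each knockout array than on each wild-type array.

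The remaining untested members were mainly at or under the floor. Some were above it on a single array, such as Cyp2b9 at 149 and Cyp3a44 at 81.8 on knockout replicate 1. Besides Cyp4a14, the untested probe sets without overlap were Cyp2c37 (13.1, 24.4 and 22.5 against 4.63, 4.48 and 9.65) and 1 of the 2 of Cyp2u1 (22.0, 16.3 and 55.5 against 3.73, 4.36 and 4.67), with knockout lower, and Cyp2j11. All 3 were under the floor on all 6 arrays, so their signals cannot be told from unspecific signal.

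Genes that work with these enzymes showed no called difference in any list. Of 11 listed electron donors 9 were measured, and the reductase Por was not among them. Of the 8 tested 6 were lower and 2 higher (median log2 −0.07). The cytochrome b5 reductase Cyb5r1 had means of 586 ± 56.2 (SD, n = 3) and 828 ± 37.6, and cytochrome b5 type B (Cyb5b) 1978 ± 136 and 1750.1 ± 212. Among 12 tested genes of haem synthesis and breakdown 8 were higher (median 0.14), with the porphobilinogen synthase gene Alad at 3610.4 ± 1053 and 6726 ± 1144 and haem oxygenase Hmox1 at 277 ± 116 and 521 ± 81.1. For the sensors and regulators of P450 genes 8 of 16 were lower (median −0.02). There Hnf4a, the liver regulator, was at 48.1 ± 21.4 and 93.2 ± 7.82, above the floor on 1 wild-type and 3 knockout arrays. Its lowest value, 28.9, came on wild type replicate 2, an array rich in hepatocyte markers. Cebpb was at 5641 ± 762 and 4687 ± 79.7. The P450s of other families, with steroid, bile acid and retinoid enzymes, were lower in 6 of 11 (median −0.02), Cyp51 of cholesterol synthesis being at 360 ± 42.1 and 443 ± 26.0 and the prostacyclin synthase Ptgis at 1801 ± 471 and 1452 ± 58.3.
Other oxidising enzymes of foreign compounds were lower in 15 of 20 (median −0.12), led by the flavin monooxygenases. Fmo1 gave 3255 ± 297 and 1834 ± 374 (adjusted p = 0.105 with limma) and Fmo2, the main form of lung, 8415 ± 1659 and 5056 ± 855 (adjusted p = 0.143), both without overlap. Of 6 conjugating enzymes 4 were lower (median −0.09), among them the sulfotransferase Sult1a1 at 3334 ± 857 and 1964 ± 528, while Tpmt was at 233 ± 35.5 and 294 ± 17.5. Eicosanoid enzymes were split, 5 of 10 lower (median −0.03), with leukotriene A4 hydrolase Lta4h at 2864 ± 219 and 3638 ± 242 and the prostaglandin dehydrogenase Hpgd at 1751 ± 110 and 1475 ± 75.0. All lists can be read against the median of 0.02 and the 47.3% lower over all tested probe sets.

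Markers of several lung cell types were lower beside these P450s, with no gene of the lists past the threshold. Signals of 10 type I alveolar markers summed to between 116987 and 156234 in wild type and between 78132 and 99234 in knockout, 10 of 10 being lower. For 10 endothelial markers the ranges were 26738 to 29969 and 21662 to 24009, 8 of 10 being lower. Type II alveolar markers were lower in 9 of 11, with ranges of 160753 to 200953 and 143752 to 168303. The part of these shifts in the lower signals of Cyp2e1, Cyp4b1, Cyp4v3 and Cyp2j6 was not tested, and in whole tissue fewer cells of a type and less RNA per cell cannot be told apart. Of 7 measured adipocyte markers, a further cell type with Cyp2e1, only Fabp4 passed the filter. Its log2 difference was 0.85, with overlapping groups (adjusted p = 0.293 with limma). Adipoq lay between 19.6 and 65.4 on all arrays. Whether adipocyte content had a part in the Cyp2e1 difference was not tested.

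**Figure D5:**
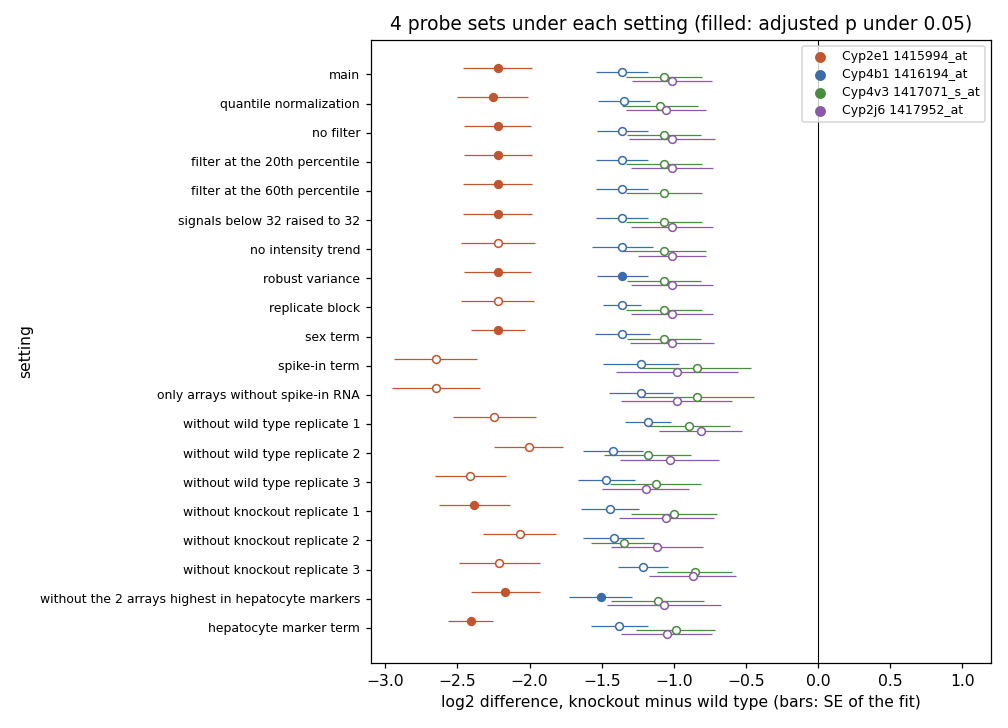
Log2 difference, knockout minus wild type, of 4 P450 probe sets under each processing setting (rows), with bars for the SE of the fit and filled points for an adjusted p under 0.05. All 4 had groups without overlap, so leaving out arrays could not bring a point above 0. Settings that change only the variance or the filter leave the difference as it was. Cyp2e1 lies between −2.65 and −2.01 while its call comes and goes.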

How the data were processed

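The authors deposited 1 linear intensity for each probe set on each array. Per the submitters' processing notes MAS5 produced it (version not given in the sources used here). Each array had been scaled by the authors to a 2% trimmed mean of 500.0, as the values show. Gene symbols came from the platform annotation. After 64 control probe sets were left out, log2 signals of probe sets above the 40th percentile were tested with limma 3.58.1 (lmFit, eBayes with trend, two-sided) in R 4.3.3 (data.table, version 1.17.8), adjusted by Benjamini and Hochberg over 27022 probe sets, threshold 0.05. Fold values are ratios of geometric means, and the number of arrays limits precision. In simulated data 28.0% of 2-fold and 73.0% of 4-fold changes were recovered among 27022 probe sets. There a fixed, small set of probe sets was lowered in knockout, in normal noise with the SD of each probe set. Recovery depends on how many probe sets change, so these shares hold for that setting only.

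Members and lists were chosen with earlier results of these data known. For a list 1 probe set per gene was used, that of highest mean. Array values are given for members past the threshold, without overlap at 1.5-fold or more, or above the floor on all 6 arrays, and for list genes the 2 of smallest p. Other members and genes were named after their values were seen. Whether replicate numbers pair the arrays is not known, and the fit did not pair them.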

Additional observations from a re-analysis of the deposited data

How the results depend on the processing

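Leaving out 1 array at a time gave between 0 and 12 called probe sets over all genes (8 with all arrays) and between 0 and 1 P450 called lower. It gave 22 to 25 P450s above the floor on every array of at least 1 genotype (22 with all arrays). With fewer arrays to pass, that count could not fall. With all arrays it was 24 and 17 for floors at the 90th and 99th percentiles of olfactory probe sets. For a floor at the 40th percentile of all probe sets it was 20. The count over all genes was 0 without an intensity trend, 40 with robust variance, 4 with a sex term, 2 with a bacterial control RNA term and 3 on the arrays without that RNA. In alternatives chosen after seeing the data it was 61 without the 2 arrays rich in hepatocyte markers and 4 with their marker sum as a term. The count of P450s called lower was 0 without an intensity trend, with the control RNA term and on the arrays without that RNA, and 2 with robust variance and without the 2 hepatocyte-rich arrays, Cyp4b1 being the other. No setting called a P450 higher. The causes of these shifts were not tested.

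No pair of same-numbered arrays deviated together (correlations −0.14, −0.38 and −0.01). With the replicate number as a block 0 probe sets were called over all genes and 0 P450s lower, Cyp2e1 having an adjusted p of 0.0627.

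The median of the tested P450s was −0.72 with the filter at the 60th percentile, where 8 remained, and −0.10 with no filter. Uncalled differences changed sign as follows. With the control RNA term, and on the arrays without that RNA, Cyp1a1 was 0.15 and Cyp2c23 −0.18. Over the leave-one-out fits a probe set of Cyp2b10 ran from −0.28 to 0.66, Cyp2c23 from −0.0444 to 0.91, a probe set of Cyp2d22 from −0.0497 to 0.23, Cyp2f2 from −0.0144 to 0.33 and Cyp3a13 from −0.60 to 0.16. That Cyp2d22 probe set was −0.00897 without both hepatocyte-rich arrays.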

Other observations

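Cardiac transcripts varied by array as well. The summed signal of 6 cardiomyocyte markers was 43743 on knockout replicate 2 and between 4427 and 17864 on the other arrays. The atrial peptide gene Nppa was at 4654 on that array, 220.3 on knockout replicate 3 and at most 38.8 elsewhere.

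Summed marker signals of further cell types are given as values. No gene of these lists passed the threshold, and no difference between the sums was tested. Mast cell and basophil markers were higher in 5 of 5 tested, with sums of 1354 to 2016 in wild type and 3176 to 7176 in knockout. Ciliated cell markers were higher in 6 of 6, with sums of 7592 to 9005 against 12491 to 12576. Fibroblast markers were higher in 6 of 8 and smooth muscle markers in 6 of 6, while macrophage markers were lower in 4 of 7. Club cell markers were higher in 4 of 7 tested. The ranges of the sums overlapped between the genotypes for the fibroblast, smooth muscle, macrophage and club cell lists.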
